A study of Mus musculus with 14 samples.

Results

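miR-126 is a microRNA of blood vessels, and its hairpin gives a 5p and a 3p product that can be counted separately. Both products were followed by name along the mouse epididymis, as miR-126a-5p and miR-126a-3p in the table of whole tissue (2 of its 900 mature miRNAs) and as miR-126-5p and miR-126-3p in the table of epididymal epithelial cells (2 of 677). The rule picks these members by name and uses no value of theirs, although the topic was chosen with earlier results of these data known. Small RNA was sequenced from the caput, corpus and cauda of Swiss mice, all male and 8 weeks old, with no genetic change or treatment in any group. Whole tissue gave 3 caput, 2 corpus and 3 cauda libraries, and isolated epithelial cells gave 2 libraries per region. The paper's methods state that blood vessels were flushed with buffer before dissection, that each library pools tissue of several mice, and that epithelial cells were enriched by enzyme digestion, straining and a culture step meant to leave fibroblasts and muscle cells on the plate, with no sort on a surface marker. Enrichment was judged there by light microscopy, by staining for the androgen receptor and with a lectin that marks sperm, and by immunoblots for epithelial and sperm proteins. The paper reports high enrichment of epithelial cells, with no cell lacking the androgen receptor detected and no sign of sperm. The study calls its replicates biological in one place and technical in another, and its methods describe fewer replicates than the 3 caput and 3 cauda libraries of whole tissue used here. If they are technical, p-values measure only the spread between libraries of the same RNA and are too small.

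miR-126 is encoded within Egfl7, a gene of the vessel wall, and is known as the most characteristic miRNA of endothelial cells. The 3p product silences Spred1 and Pik3r2, both inhibitors of growth factor signalling, and so favours the response to VEGF and vascular integrity. The 5p product has targets of its own, among them Dlk1, and has been tied to endothelial proliferation. Platelets and blood stem cells also hold miR-126. The tables contain miRNAs only, so that endothelial messenger RNAs such as Pecam1 or Egfl7 itself were not measured and the endothelial origin of the reads could not be checked with them.

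The sequences below, from RefSeq on the build GRCm38.p6, show which strand of the hairpin the counts of the 3p arm refer to and how the antisense hairpin of the same locus differs. The Mir126a hairpin has 73 bases at chr2:26591357-26591429 on the plus strand. In the GENCODE M21 annotation it lies inside Egfl7 (chr2:26580014-26593120, plus strand), where 9 transcripts span it, with the hairpin in an intron of 8 and in an exon of 1 transcript that keeps the intron. The intron found in most of them runs from 26591064 to 26591663. The hairpin is printed with miR-126a-3p in capitals, and the mature miRNAs with their seed, bases 2 to 8, in capitals.
Mir126a hairpin: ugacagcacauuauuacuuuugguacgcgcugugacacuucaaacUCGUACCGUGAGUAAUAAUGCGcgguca
miR-126a-3p: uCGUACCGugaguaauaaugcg
miR-126b-5p: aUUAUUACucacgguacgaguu
miR-126b-3p: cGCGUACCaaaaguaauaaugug
miR-126a-3p occupies chr2:26591402-26591423. Its seed is found in 1 of the 1738 mature mouse miRNAs of the RefSeq table, miR-126a-3p itself. miR-126b-5p (chr2:26591399-26591420) and miR-126b-3p (chr2:26591363-26591385) come from the minus strand, and miR-126b-5p covers 19 of the bases of miR-126a-3p in antisense. The antisense products were nearly absent. In whole tissue miR-126b-5p had 1 count in 1 corpus library, miR-126b-3p had 1 count in the other corpus library, and both were at 0 in the remaining libraries, while the epithelial table listed neither. The values that follow therefore belong to the plus strand.

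Whole tissue libraries held 1243398 to 2135501 miRNA counts and epithelial libraries 89039 to 362867, with the lowest totals in the epithelial corpus. Counts for both arms of miR-126 were whole numbers in every library. Within each group the libraries differed by more than counting noise, so none was treated as a duplicate, and errors are standard deviations between libraries. Preparation cannot be told apart from sequencing depth or from the processing of the table, because each preparation has a table of its own.

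miR-126-5p was among the most abundant miRNAs of the epididymis. It made up 1.16% to 1.76% of all miRNA counts in whole tissue, with a median of 1.51% over 8 libraries, and held positions 11 to 16 by count. In epithelial cells its share ran from 1.27% to 4.99%, at positions 4 to 15. miR-126-3p was counted less often, at 0.0831% to 0.172% of whole tissue counts and 0.116% to 0.481% of epithelial counts, at positions 42 to 64 and 28 to 66. Even in the shallowest group, the epithelial corpus, the 3p arm had 155 and 103 counts and the 5p arm had 1610 and 1179.

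In whole tissue the 5p arm was nearly level along the duct. Its level in CPM (counts divided by library size times TMM factor, here within whole tissue) was 17237, 13757 and 14140 in caput libraries, 13666 and 12916 in corpus libraries, and 15558, 15773 and 15169 in cauda libraries. The means were 15044 ± 1908 (SD, n = 3), 13291 ± 531 (SD, n = 2) and 15500 ± 306 (SD, n = 3). The cauda libraries lay within the range of the caput libraries, and both corpus libraries lay below all cauda libraries. By limma-voom the 5p arm differed by -0.17 on the log2 scale from caput to corpus (SE 0.10, adjusted p = 0.18), by 0.22 from corpus to cauda (SE 0.10, adjusted p = 0.091) and by 0.050 from caput to cauda (SE 0.091, adjusted p = 0.62). The 95% interval of the last difference was 0.899 to 1.19-fold. 

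The 3p arm was highest in the whole cauda. In CPM it stood at 1014, 1020 and 974 in caput libraries, 1077 and 1029 in corpus libraries, and 1295, 1546 and 1229 in cauda libraries, with means of 1002 ± 24.7 (SD, n = 3), 1053 ± 34.1 (SD, n = 2) and 1357 ± 168 (SD, n = 3). All cauda libraries lay above all libraries of the other regions, which were close to one another. From caput to cauda the 3p arm was 1.35-fold higher, a log2 difference of 0.43 (SE 0.10, adjusted p = 0.0024), and from corpus to cauda 1.28-fold higher (log2 0.36, SE 0.11, adjusted p = 0.021). The difference from caput to corpus was 0.071 (SE 0.11, adjusted p = 0.60), and 0.41 (adjusted p = 0.015) with library totals in place of TMM.

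A miRNA was called differentially expressed where its adjusted p was below 0.05 and its level differed 2-fold or more. By this rule 0 of the 2 arms were called in whole tissue by limma-voom in any of the comparisons, against 29.9% of all miRNAs tested from caput to corpus, 27.3% from corpus to cauda and 53.2% from caput to cauda. At an unadjusted p under 0.05 there was 1 of 2 arms, the 3p arm, in each comparison with the cauda and 0 of 2 from caput to corpus, and the tests of DESeq2 and edgeR also called 0 arms. The direction of the 5p arm from caput to corpus rested on the scaling, since library totals in place of TMM moved all whole tissue values by 0.33 (log2) and gave 0.16 with an adjusted p of 0.25. From caput to cauda library totals moved all values by 0.35 and gave 0.40 for the 5p arm (adjusted p = 0.0048) and 0.78 for the 3p arm, both below 2-fold.

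**Figure D1:**
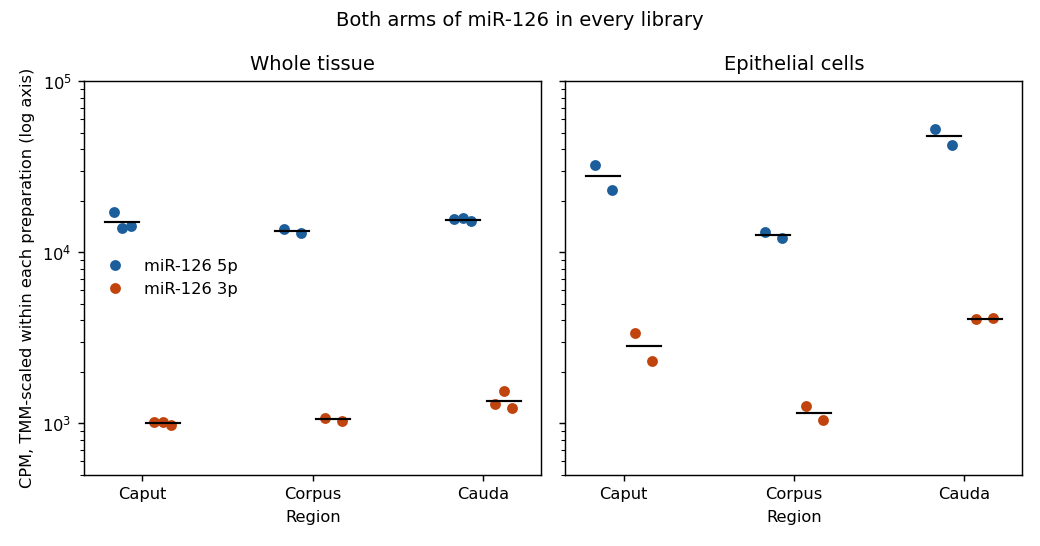
CPM on a log axis for miR-126-5p (blue) and miR-126-3p (red) in every library, by region, with black lines at the region means. TMM scaling was done within each preparation, so heights are comparable within a panel. Whole tissue runs nearly level for 5p, while both arms in epithelial cells were lowest in the corpus (12552 and 1155 CPM on average) and highest in the cauda (47573 and 4082 CPM).

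In epithelial cells both arms fell from caput to corpus and rose again in the cauda. The 5p arm was at 32390 and 23204 CPM (scaled within epithelial cells) in caput libraries, 13064 and 12041 in corpus libraries, and 52617 and 42528 in cauda libraries. The means were 27797 ± 6496, 12552 ± 724 and 47573 ± 7134 (SD, n = 2 each). No library of one region overlapped those of another, in the order corpus, caput, cauda. The 3p arm was at 3364 and 2313 CPM in caput libraries, 1258 and 1052 in corpus libraries, and 4051 and 4112 in cauda libraries, with means of 2839 ± 743, 1155 ± 146 and 4082 ± 43.2 (SD, n = 2 each). It had the same order, again without overlap.

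From corpus to cauda the 5p arm rose 3.77-fold (log2 1.91, SE 0.20, adjusted p = 0.0013, limma-voom) and the 3p arm 3.52-fold (log2 1.82, SE 0.24, adjusted p = 0.0037). Both arms were thus called, against 10.9% of the 192 miRNAs tested, and by p-value they stood at positions 2 and 3 among them. These calls were kept without any one of the 6 libraries, with values of 1.76 to 2.04 for 5p and 1.69 to 1.95 for 3p. From caput to corpus the 5p arm fell by 1.13 on the log2 scale (SE 0.20, adjusted p = 0.0096) and the 3p arm fell by 1.27 (SE 0.24, adjusted p = 0.010), so that 2 of 2 arms were called, against 12.2% of the miRNAs tested.

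The fall into the corpus depended on single libraries for its call, though not for its direction. Without caput replicate 1 the log2 differences were -0.86 for 5p (adjusted p = 0.065) and -0.97 for 3p (adjusted p = 0.069). Without corpus replicate 2 they were -1.04 (adjusted p = 0.052) and -1.12 (adjusted p = 0.056), and without corpus replicate 1 the 5p value was -1.19 (adjusted p = 0.054). With library totals the 5p difference was -0.96 (adjusted p = 0.0092), just under 2-fold.

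From caput to cauda the 5p arm was 1.73-fold higher in epithelial cells (log2 0.79, SE 0.20, adjusted p = 0.018), short of 2-fold. Without caput replicate 1, the higher of the caput pair, it was 1.09 (adjusted p = 0.010) and past 2-fold. The 3p arm differed by 0.55 (SE 0.20, adjusted p = 0.064), with a 95% interval of 1.05 to 2.03-fold. Without caput replicate 1 it was 0.88 (adjusted p = 0.036) and without caput replicate 2 it was 0.31 (adjusted p = 0.30). Hence 0 of 2 arms were called by limma-voom in this comparison, against 25.9% of all miRNAs tested, with 2 of 2 at an unadjusted p under 0.05. edgeR and DESeq2 called 0 of 2 as well.

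**Figure D2:**
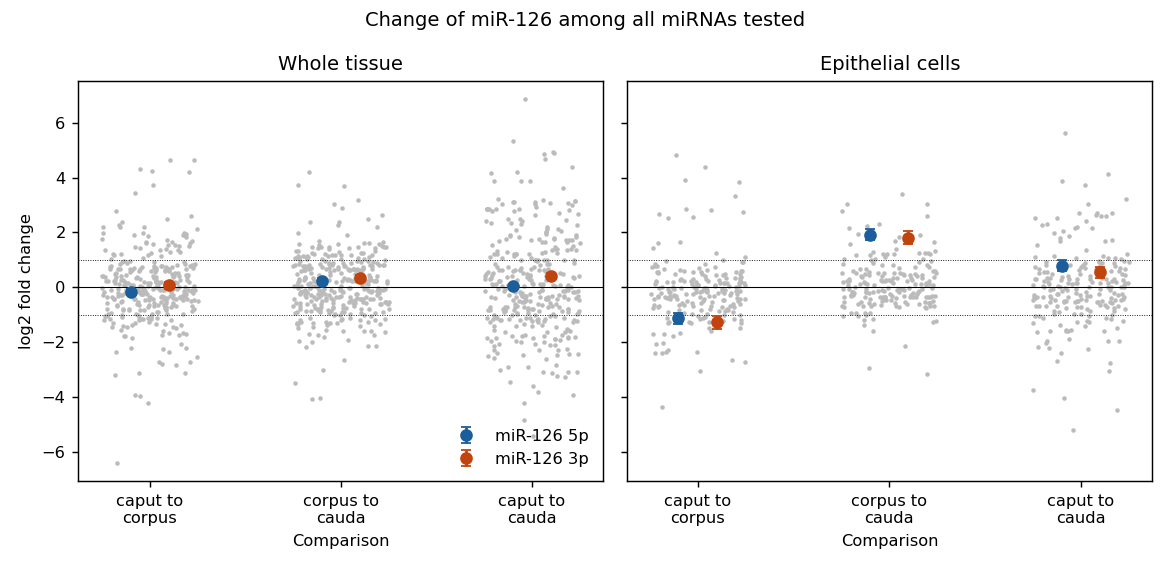
Log2 fold change between regions for all miRNAs tested (grey points, spread sideways at random) and for both arms of miR-126 (coloured points, bars are the SE of the fit). Dotted lines mark 2-fold. In whole tissue both arms sit within 0.43 of no change, whereas in epithelial cells they fall by 1.13 and 1.27 from caput to corpus and rise by 1.91 and 1.82 from corpus to cauda.

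When both preparations were placed on a common scale, miR-126 was more abundant in the epithelial preparation than in whole tissue at both ends of the duct. For this comparison the 14 libraries were scaled and fitted together over 350 miRNAs. On this common scale the 5p arm averaged 26312 ± 4001 CPM in epithelial caput (n = 2) and 14077 ± 2106 in whole caput (n = 3), 11508 ± 481 and 13662 ± 268 in epithelial and whole corpus (n = 2 each), and 42695 ± 4110 (n = 2) and 19192 ± 757 (n = 3) in the cauda. The 3p arm averaged 2684 ± 485 and 936 ± 33.3 in these groups of the caput, 1058 ± 117 and 1083 ± 13.0 in those of the corpus, and 3679 ± 238 and 1682 ± 239 in the cauda. Each error is an SD between libraries. Every epithelial library lay above every whole tissue library in the caput and in the cauda for both arms, and in the corpus both epithelial libraries lay below both whole tissue libraries for 5p and overlapped them for 3p.

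For the 5p arm the order of the 6 groups ran from epithelial cauda through epithelial caput, whole cauda, whole caput and whole corpus to epithelial corpus. Whole caput and whole corpus overlapped, and the test found no difference between whole and epithelial corpus. Whole cauda lay above whole caput on this scale, although the 5p arm differed by only 0.050 (log2) between them when whole tissue was scaled alone, so this step of the order rests on the scaling. For the 3p arm the order was epithelial cauda, epithelial caput, whole cauda, whole corpus, epithelial corpus and whole caput, where whole and epithelial corpus overlapped.

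In the caput the 3p arm was 2.85-fold higher in epithelial cells (log2 1.51, SE 0.14, adjusted p = 1.1e-06) and was called, while the 5p arm was 1.87-fold higher (log2 0.91, SE 0.13, adjusted p = 4.0e-05) and stayed under 2-fold. This made 1 of 2 arms, against 38% of the miRNAs tested. Without epithelial caput replicate 2 the 5p difference was 1.06 (adjusted p = 0.00025) and past 2-fold. In the cauda the 5p arm was 2.22-fold higher (log2 1.15, SE 0.12, adjusted p = 2.9e-06) and the 3p arm 2.20-fold higher (log2 1.14, SE 0.14, adjusted p = 8.9e-06), so that 2 of 2 were called, against 42%. In the cauda the median difference of all miRNAs was -0.53, whereas it was -0.10 in the caput and -0.12 in the corpus.

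In the corpus the preparations did not differ detectably. The 5p difference was -0.25 (SE 0.15, adjusted p = 0.22), with a 95% interval of 0.674 to 1.06-fold, and the 3p difference was -0.024 (SE 0.20, adjusted p = 0.94), with an interval of 0.730 to 1.33-fold. By limma-voom 0 of 2 arms were called, against 25.1% of the miRNAs tested, and 0 of 2 had an unadjusted p under 0.05. edgeR and DESeq2 also called 0.

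The change along the duct itself differed between the preparations where the corpus was involved. From corpus to cauda the change in epithelial cells exceeded that in whole tissue by 1.40 for 5p (log2, SE 0.20, adjusted p = 0.0013) and by 1.16 for 3p (SE 0.24, adjusted p = 0.019). The difference held without any one of the 14 libraries. At an FDR below 0.05 alone, the rule for differences between changes, both arms were called, against 5.43% of the miRNAs tested. From caput to corpus the difference of changes was -1.15 for 5p (SE 0.20, adjusted p = 0.0061) and -1.54 for 3p (SE 0.25, adjusted p = 0.0060), against 2.29% called, and the arms ranked first and second of the 350 by p-value.

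The caput-to-corpus difference again leaned on single libraries. For 5p it passed the threshold no longer without whole corpus replicate 1 (-0.91, adjusted p = 0.060), whole corpus replicate 2 (-1.06, adjusted p = 0.074), epithelial caput replicate 1 (-0.88, adjusted p = 0.10), epithelial corpus replicate 1 (-0.95, adjusted p = 0.079) or epithelial corpus replicate 2 (-1.02, adjusted p = 0.15). For 3p it was lost without epithelial corpus replicate 2 only, among the 14 libraries left out in turn (-1.34, adjusted p = 0.059).

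From caput to cauda the difference of changes was 0.25 for 5p (SE 0.18, adjusted p = 0.35) and -0.38 for 3p (SE 0.20, adjusted p = 0.20), so that 0 of 2 arms were called by limma-voom, against 14.3%, and 0 of 2 had an unadjusted p under 0.05. The 5p value depended on the processing. It was 0.60 by DESeq2's Wald test (adjusted p = 0.046), which thus called 1 arm, whereas edgeR called 0. It reached 0.92 without epithelial cauda replicate 2 (adjusted p = 0.0035), 0.89 without epithelial corpus replicate 1 (adjusted p = 0.0049) and 0.83 without epithelial caput replicate 1 (adjusted p = 0.032), and it also passed without whole caput replicates 1 and 2, whole corpus replicates 1 and 2, whole cauda replicates 1 and 3 or epithelial corpus replicate 2, each in turn, with values between 0.57 and 0.76. The 3p value had no stable direction. It ran from -0.56 to 0.27 without 1 library and stayed below 0 only without whole caput replicate 3, whole cauda replicate 2, epithelial caput replicate 2 or epithelial cauda replicate 1, of the 14 left out in turn.

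The arm ratio, the number of 5p reads per 3p read, compares both products within the same library and needs no scaling between libraries. Adaptors do not join all small RNAs equally well, so the ratio is one of reads and not of molecules. Tests were run only on its differences between groups, and its level is described. The 5p arm was the more frequent in every library, with 9.63 to 17.0 reads per 3p read and a median of 12.2 over the 14 libraries. As a share, 5p made up 90.6% (95% Wilson interval 90.0% to 91.1%) of the reads of both arms in the library with the lowest ratio, epithelial caput replicate 1, and 94.4% (94.2% to 94.7%) in the one with the highest, whole caput replicate 1. Such intervals cover counting error only.

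In whole tissue the ratio was 17.0, 13.5 and 14.5 for caput libraries, 12.7 and 12.6 for corpus libraries, and 12.0, 10.2 and 12.3 for cauda libraries, with means of 15.0 ± 1.81 (SD, n = 3), 12.6 ± 0.0955 (SD, n = 2) and 11.5 ± 1.15 (SD, n = 3). The libraries of the 3 regions did not overlap, and the ratio was lowest in the cauda. On the log2 scale it differed by -0.24 from caput to corpus (adjusted p = 0.20, limma), by -0.14 from corpus to cauda (adjusted p = 0.61) and by -0.38 from caput to cauda (SE 0.12, adjusted p = 0.046). The caput-to-cauda difference passed an FDR of 0.05, as did 28.7% of the 94 hairpins tested. The other differences were not called, where 27.1% and 7.06% of 85 hairpins were.

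That call was narrow, since it was lost in each fit without 1 library except that without caput replicate 2. The exact permutation test gave p = 0.10, the smallest that 3 libraries against 3 allow, so it could not pass 0.05 whatever the values. The log2 difference was -0.29 without caput replicate 1 (adjusted p = 0.13), which had the ratio of 17.0, and also -0.29 without cauda replicate 2 (adjusted p = 0.16), which had 10.2. It was -0.40 without caput replicate 3 (adjusted p = 0.093), -0.41 without cauda replicate 1 (adjusted p = 0.082) and -0.43 without cauda replicate 3 (adjusted p = 0.061), and stayed at -0.38 without corpus replicate 1 (adjusted p = 0.055) or 2 (adjusted p = 0.056).

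In epithelial cells the ratio was 9.63 and 10.0 for caput libraries, 10.4 and 11.4 for corpus libraries, and 13.0 and 10.3 for cauda libraries, or 9.83 ± 0.284, 10.9 ± 0.749 and 11.7 ± 1.87 on average (SD, n = 2 each). The cauda pair spanned the corpus pair. The log2 differences were 0.15 from caput to corpus (adjusted p = 0.39), 0.093 from corpus to cauda (adjusted p = 0.71) and 0.24 from caput to cauda (adjusted p = 0.30), and by limma the hairpin was called in 0 of these comparisons and had an unadjusted p under 0.05 in 0. The shares called among all hairpins were 3.23%, 4% and 3.12%. The differences to the cauda depended on each of its 2 libraries. Without cauda replicate 1, with the ratio of 13.0, they were -0.072 from the corpus and 0.073 from the caput (adjusted p = 0.67 and 0.72), and without cauda replicate 2 they were 0.26 and 0.40 (adjusted p = 0.16 and 0.071). With 2 libraries against 2 the exact permutation test cannot go below p = 0.33. The interval of the caput-to-cauda difference was 0.971 to 1.43-fold, so shifts inside it were not detectable with 2 libraries per region. Both arms thus moved together in epithelial cells through a corpus-to-cauda change of more than 3-fold.

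**Figure D3:**
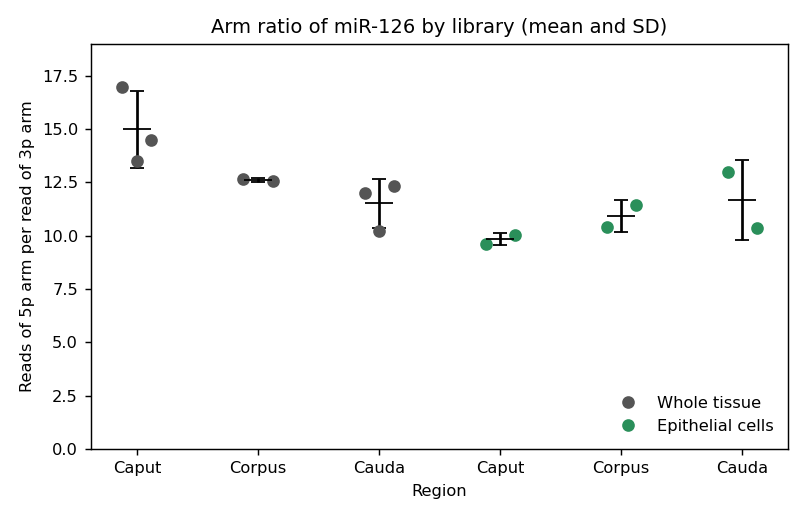
Reads of miR-126-5p per read of miR-126-3p in each library of whole tissue (grey) and epithelial cells (green), with the mean and SD of each region. The whole caput libraries (13.5 to 17.0) lie above all other libraries, and the epithelial caput libraries (9.63 and 10.0) lie lowest.

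Compared between preparations, the ratio was lower in epithelial cells than in whole tissue in the caput, by 0.60 on the log2 scale (SE 0.16, adjusted p = 0.0084, limma). Each whole caput library exceeded each epithelial caput library. The exact permutation test gave p = 0.10, the smallest that 3 against 2 libraries allow, and without epithelial caput replicate 1 the difference was -0.57 (adjusted p = 0.063). Among all 96 hairpins 32.3% were called in this comparison, 14 with a higher and 17 with a lower ratio in epithelial cells. In the corpus the difference was -0.22 (adjusted p = 0.39), with an interval of 0.663 to 1.12-fold, and in the cauda it was 0.013 (adjusted p = 0.94), with an interval of 0.795 to 1.28-fold, where 31.2% and 40.6% of hairpins were called. The caput-to-cauda change of the ratio differed between preparations by 0.62 (SE 0.22, adjusted p = 0.12), which did not pass, against 7.29% called. For caput to corpus that difference was 0.39 (adjusted p = 0.36, against 2.08% called) and for corpus to cauda 0.23 (adjusted p = 0.73, against 3.12% called).

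Set among the other hairpins with both arms identified, miR-126 was within the range of read ratios, which as levels carry the adaptor limit named above. In whole tissue 54 of 96 hairpins (56.2%) had more 5p than 3p reads, and miR-126, with a mean of 13.0 5p reads per 3p read on the log scale, stood at position 33 when hairpins were ordered from the highest to the lowest ratio of reads. In epithelial cells 17 of 32 (53.1%) had more 5p reads, and miR-126 stood at position 8 with 10.7. The highest and lowest region means of its ratio were 0.38 apart on the log2 scale in whole tissue. The median hairpin spanned 0.80 there, and 18 of 96 spanned less than miR-126. In epithelial cells they were 0.24 apart against a median of 0.98, and 2 of 32 hairpins spanned less. This distance also holds counting error, which is larger for hairpins with few reads of an arm. In epithelial cells the SE of the caput-to-cauda difference was 0.12 for miR-126 and 1.65 for miR-582. The distances therefore do not show that the ratio of miR-126 was steadier than that of other hairpins.

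**Figure D4:**
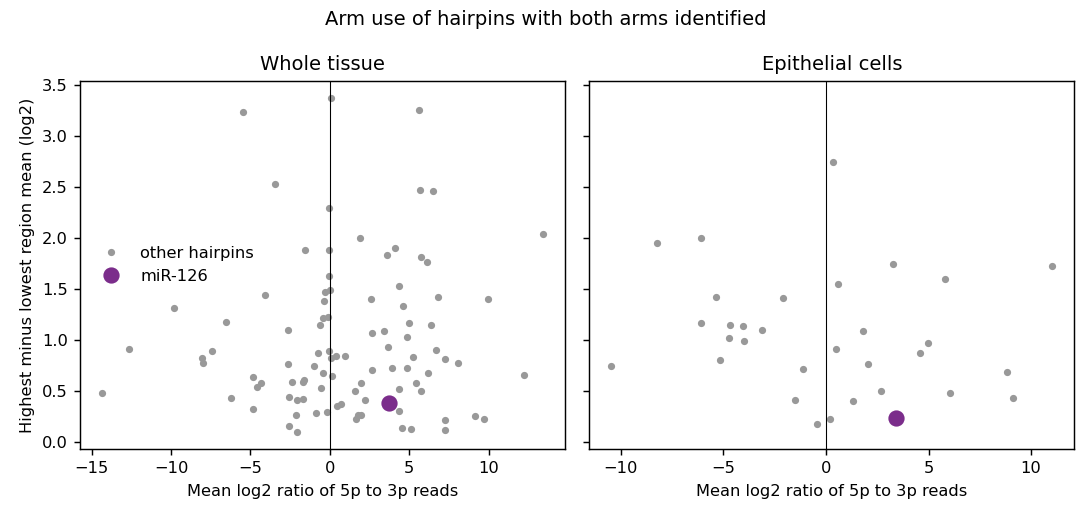
Each point is a hairpin with both arms identified. The x axis gives the mean log2 ratio of 5p to 3p reads over all libraries of the preparation, with more 5p than 3p reads to the right of 0, and the y axis the distance between the highest and lowest region means (log2). miR-126 (purple) lies at 3.70 and 0.38 in whole tissue and at 3.42 and 0.24 in epithelial cells.

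The miRNAs whose log2 CPM followed miR-126-3p most closely differed between the preparations. Over the 8 whole tissue libraries they were miR-376a-5p (Pearson r = 0.958), miR-411-5p (0.955), miR-136-5p (0.945), miR-381-3p (0.941) and miR-144-5p (0.939) among 359 compared. miR-144-5p is a red blood cell miRNA. The 5p arm of the same hairpin came at position 140 there, with r = 0.409. Over the 6 epithelial libraries they were miR-15b-5p (0.984), miR-126-5p (0.984), miR-139-5p (0.973), miR-322-5p (0.959) and miR-451 (0.949) among 215 compared. miR-451 is on the red blood cell list, while miR-15b-5p, miR-139-5p and miR-322-5p are on none of the lists. The libraries of each preparation fall into 3 regions and share their scaling, so the values describe the likeness of regional patterns.

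Other miRNAs linked to endothelial cells or to vessel growth are given beside the share called among all miRNAs, and these counts do not set the list apart. Of a list of 19, such as the miR-17-92 cluster, the miR-23-27-24 clusters, miR-221 and the hypoxia-induced miR-210, 17 were tested from corpus to cauda, where 1 rose, miR-27a-3p (log2 1.12, SE 0.30, adjusted p = 0.047), and 1 fell, miR-210-3p (fell by 1.57, SE 0.21, adjusted p = 0.0037), beside 10.9% called among all miRNAs. miR-23a-3p was 0.93 higher (SE 0.22, adjusted p = 0.034), short of 2-fold. The median change of the list was 0.14, beside 0.078 for all miRNAs. From caput to corpus 2 of 17 rose, miR-222-3p (2.57) and miR-92a-3p (1.62), and 0 fell, beside 12.2% called, with a median of 0.0055 beside -0.15. From caput to cauda the same 2 rose, miR-222-3p by 2.71, and 0 fell, beside 25.9% called, with a median of 0.21 beside -0.0014. The summed CPM of the list, scaled within epithelial cells, was 35077 to 37186 in the caput, 32517 to 33009 in the corpus and 39710 to 51165 in the cauda. These sums had the order of miR-126, without overlap between regions. Scaled within whole tissue, the sums were 23494 to 26065, 17147 to 18547 and 22537 to 26277. Most of these miRNAs are expressed in many cell types. In whole tissue 3 of 19 rose and 0 fell from caput to corpus (29.9% called among all), 0 rose and 3 fell from corpus to cauda (27.3%), and 4 rose and 3 fell from caput to cauda (53.2%).

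Between preparations the same list lay above whole tissue in its median at each region, as miR-126 did at 2 of them. In the caput 5 of 19 were higher in epithelial cells and 1 lower (38% called among all), with a median of 0.53 beside -0.10 for all miRNAs. The 5 were miR-132-3p (4.02), miR-23b-3p (1.34), miR-23a-3p (1.32), miR-221-3p (1.21) and miR-378a-3p (1.11). In the corpus 4 were higher and 1 lower (25.1% called among all, median 0.48 beside -0.12), and in the cauda 5 were higher and 3 lower (42% called, median 0.33 beside -0.53). miR-221-3p, expressed in endothelial and other vascular cells, was higher in the epithelial preparation in all regions, by 1.62 in the corpus and 1.31 in the cauda. miR-296-5p was lower in all regions, by log2 values of -1.50, -2.11 and -1.78. In the difference of changes between preparations, 0 of the 19 were called by limma-voom between caput and corpus and 0 between corpus and cauda, with 3 and 4 at an unadjusted p under 0.05. Only 2.29% and 5.43% of all miRNAs were called there, so a count of 0 is near that share.

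**Figure D5:**
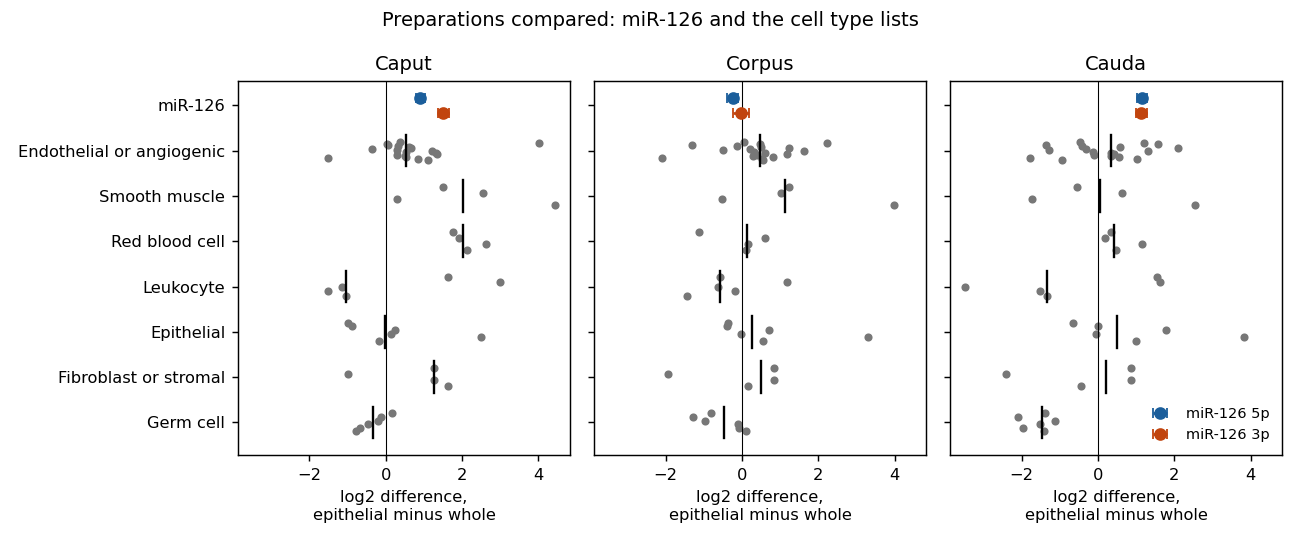
Log2 difference, epithelial minus whole tissue, in each region, for both arms of miR-126 (coloured, bars are the SE of the fit) and for the members of 7 lists of cell type miRNAs (grey points, black lines at the list medians). Both arms lie at 0.91 to 1.51 in the caput and cauda and near 0 in the corpus. The red blood cell list has medians of 2.02 for caput, 0.13 for corpus and 0.41 for cauda.

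In epithelial cells the red blood cell miRNAs were lowest on average in the corpus and highest in the cauda, as miR-126 was. The leukocyte list and the endothelial or vessel growth list of 19 had the same order of means, so it was not particular to this list. The summed CPM of the red blood cell list (miR-451a, miR-144-3p, miR-144-5p and miR-486a-5p) was 382 to 473 in epithelial caput, 207 to 434 in epithelial corpus and 1588 to 2966 in epithelial cauda. It was 87.3 to 97.8, 238 to 276 and 846 to 1324 in whole caput, corpus and cauda. These sums, like those of the lists below, were scaled within each preparation, so they compare regions and not preparations. In epithelial cells 2 of 3 tested members rose from corpus to cauda, miR-486-5p (log2 3.03, adjusted p = 0.0098) and miR-451 (2.23, adjusted p = 0.022), beside 10.9% called among all, and all 3 rose from caput to cauda, beside 25.9%. From caput to corpus 0 of 2 were called by limma-voom and 0 had an unadjusted p under 0.05, with miR-451 at -1.02 (SE 0.47, adjusted p = 0.17) and miR-486-5p at -0.31 (SE 0.54, adjusted p = 0.71). In whole tissue 3 of 3 tested members rose from caput to corpus (median log2 1.51), beside 29.9% called among all. miR-126-5p differed there by -0.17 and miR-126-3p by 0.071. From corpus to cauda 2 of 4 rose in whole tissue, beside 27.3%. From caput to cauda 4 of 4 rose, beside 53.2% called in either direction among all miRNAs. There miR-126-5p differed by 0.050 and miR-126-3p was 0.43 higher. With library totals these were 0.40 and 0.78. In the caput 4 of 4 were higher in epithelial cells than in whole tissue, while the corpus had 0 of 4 and the cauda 1 of 4, miR-451a (1.16), beside 38%, 25.1% and 42% called among all miRNAs. The same shares apply to the comparisons of preparations for the lists that follow. No member was at 0 in every library of a preparation, and the part of blood RNA in the miR-126 values was not tested.

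The leukocyte list of 5, led by miR-142a and miR-223, summed to 470 to 865 CPM in epithelial caput, 511 to 706 in the corpus and 1380 to 1586 in the cauda. In whole tissue, on its own scale, it summed to 966 to 1160, 1160 to 1450 and 1948 to 1993. In epithelial cells 1 of 2 tested rose from corpus to cauda and 2 of 2 from caput to cauda, beside 10.9% and 25.9% called among all. The smooth muscle list, miR-143 and miR-145a, summed to 144526 to 195706 CPM in epithelial caput, 210041 to 212227 in the corpus and 158218 to 336801 in the cauda, where limma-voom called 0 of 3 tested members in any comparison of regions, and 0 had an unadjusted p under 0.05. miR-143-3p differed by 0.33 (adjusted p = 0.50) from caput to corpus, where miR-126 fell. In whole tissue the list went from 53228 to 65976 in the caput to 223163 to 249092 in the cauda, and 4 of 4 rose between them, beside 53.2% called. Between preparations 3 of 4 members were higher in epithelial cells in the caput, 2 of 4 in the corpus, where miR-126 did not differ detectably, and 1 of 4 in the cauda, where 1 was lower.

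The fibroblast list, miR-199a, miR-199b and miR-214, summed to 2924 to 3190 CPM in epithelial caput, 4041 to 4381 in the corpus and 4590 to 6855 in the cauda. On this list miR-199a-3p and miR-199b-3p had equal values in every library, as reads divided evenly between both names would give, and count as 1 measurement. Of the 3 measurements 2 were higher than in whole caput, miR-214-3p (1.64) and miR-199a-3p with miR-199b-3p (1.28), and miR-199a-5p was at -0.98 (adjusted p = 0.0013), short of 2-fold. In the corpus and in the cauda 0 were higher and 1 was lower, miR-199a-5p (-1.93 and -2.42). The shared measurement of miR-199a-3p and miR-199b-3p rose from caput to cauda by 1.08 in epithelial cells (adjusted p = 0.0078) and by 1.01 in whole tissue (adjusted p = 3.2e-06), while miR-214-3p differed by -1.02 (adjusted p = 0.057) and 0.57 (adjusted p = 0.0087), and miR-199a-5p by -0.32 (adjusted p = 0.33) and 0.63 (adjusted p = 0.00052). The epithelial list, the miR-200 family and miR-205, summed to 26042 to 28510, 38705 to 40513 and 33642 to 41128 CPM in epithelial cells. In whole tissue, on its own scale, it summed to 21881 to 23681, 17395 to 18222 and 8185 to 9893. In the joint fit 3 of 6 members had a positive difference in each region. Those called higher in epithelial cells were 1 of 6 (caput), 1 of 6 (corpus) and 3 of 6 (cauda). The germ cell list, which includes miR-34c-5p and miR-449a-5p, was lower in epithelial cells for 0 of 6 (caput), 1 of 6 (corpus) and 6 of 6 (cauda). The part of these cell types in the miR-126 values was not tested, and in bulk samples fewer cells of a type and less RNA per cell cannot be told apart.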

How the data were processed

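Reads were cleaned of adaptor, PhiX, ribosomal and mitochondrial sequence by the authors and aligned to the genome build mm10 and to miRBase. The authors deposited 1 table per preparation, with expected counts of each mature miRNA as raw values. The submitters' processing notes name CASAVA 1.8.2, Bowtie 1.1.1 and limma. How reads matching several miRNAs were treated is not given in the sources used here, and between 2.95% and 4.58% of the values of a library were fractions. The epithelial table has 0.001 added to each value, which was removed, and 0 columns were left out of either table. Library totals were 1243398 to 2135501 (whole tissue) and 89039 to 362867 (epithelial). Values were rounded for the tests.

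In R 4.3.3, counts were scaled by TMM (edgeR 4.0.16) and levels tested by limma-voom (limma 3.58.1), with 1 fit per preparation. Each test covered miRNAs with a mean count above 10 in a region compared, and p-values were adjusted over them by the Benjamini-Hochberg method. Arm ratios were tested by limma with a trend on log2 of 5p plus 0.5 over 3p plus 0.5, over all hairpins with both arms above that mean. Preparations were compared in a joint fit of the 14 libraries, with 578 names matched as given and 31 after adding the letter a. Adjusted p-values are from these fits unless another tool is named. Alternatives used edgeR's quasi-likelihood test, DESeq2 1.42.0, other scalings, filters and pseudocounts, a replicate block, the exact two-sided permutation test and each library left out. The limma fits were tested on simulated data.

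Named miRNAs are both arms of miR-126, those of miR-126b, members of the 7 cell type lists and the 5 with the highest Pearson r to miR-126-3p per preparation. The members and lists were chosen with earlier results of these data known. When a library is left out, a region can keep 1 library, which is then assumed to vary like the others.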

Additional observations from a re-analysis of the deposited data

Results flagged for a closer look

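The change of miR-126 along the duct differed between whole tissue and epithelial cells by a test of the difference itself, the interaction of preparation and region in limma-voom over 14 libraries. From caput to corpus the epithelial change minus the whole tissue change was -1.54 for miR-126-3p (log2, SE 0.25, adjusted p = 0.0060) and -1.15 for miR-126-5p (SE 0.20, adjusted p = 0.0061). From corpus to cauda it was 1.16 for miR-126-3p (SE 0.24, adjusted p = 0.019) and 1.40 for miR-126-5p (SE 0.20, adjusted p = 0.0013). The epithelial corpus libraries, which enter all 4 values, had the lowest totals, 127111 and 89039 counts. The part of depth in these values was not tested.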

How the results depend on the processing

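Over the 36 tested values of miR-126, 633 values under alternatives were computed, of which 589 kept their direction or stayed uncalled, 27 lost their call, 17 gained one and 0 called values changed sign. The whole tissue caput-to-cauda ratio stayed at -0.38. It lost its call with all hairpins having at least 1 count (adjusted p = 0.059) and without the trend (0.12). The call was also lost with only the 2 regions compared (0.057) and with the replicate block (0.077). Without 1 library the ratio difference ran from -0.45 to -0.29. The caput ratio between preparations stayed at -0.60 and lost its call without the trend (adjusted p = 0.072), with -0.68 to -0.51 without 1 library. In the exact test both gave p = 0.10, the smallest possible there. That test could not keep these calls, and its results are among the lost calls counted above. The difference of the caput-to-cauda ratio changes between preparations, 0.62, passed with at least 10 counts of each arm in every library (adjusted p = 0.022). With library totals the epithelial 5p fall from caput to corpus was -0.96. Without 1 library that fall ran from -1.33 to -0.86 for 5p and from -1.50 to -0.97 for 3p, and the 5p caput-to-cauda value from 0.58 to 1.09. The 5p difference of caput-to-cauda changes became significant with DESeq2's test (0.60), its size factors (0.58), library totals (0.58) and all miRNAs with at least 1 count (0.56), and ran from 0.093 to 0.92 without 1 library. The caput-to-corpus difference ran from -1.31 to -0.88 for 5p and from -1.72 to -1.24 for 3p, and the 5p caput difference between preparations from 0.60 to 1.06. The causes were not tested.

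Same-numbered libraries did not deviate together throughout (r = -0.093 to 0.21 across miRNAs), so the numbers were not taken as pairs. The replicate block changed no call of miR-126 other than the whole tissue ratio above, where the block gave -0.38. Numbers of miRNAs called varied more than the members. Over the alternatives with all libraries they ran from 64 to 128 (100 as reported), 63 to 115 (93) and 115 to 255 (189) for caput to corpus, corpus to cauda and caput to cauda in whole tissue, from 17 to 53 (25), 15 to 37 (21) and 28 to 68 (56) in epithelial cells, and from 42 to 244 (133), 38 to 278 (88) and 45 to 267 (147) between preparations in caput, corpus and cauda. For the difference of changes from caput to corpus they ran from 4 to 17 (8). Called ratios ran from 10 to 50 (31), 6 to 62 (30) and 8 to 67 (39) between preparations, from 0 to 12 (6) in whole tissue from corpus to cauda, from 1 to 4 (1), 0 to 4 (1) and 0 to 3 (1) in epithelial cells, and, for the difference of changes, from 0 to 11 (7) from caput to cauda and 1 to 4 (2) from caput to corpus. Without 1 library the level counts fell as low as 10, 4 and 26 in epithelial cells, and 1 and 7 for the differences of changes that involve the corpus. The epithelial corpus had the fewest counts, with 103 of the 3p arm in its shallower library.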
